A study of Mus musculus with 4 samples.

Results

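Open chromatin at the collagen genes was compared between wild-type and Carm1 mutant mouse hearts. The family comprised every protein-coding gene of the RefSeq mm10 gene table whose symbol reads Col, a number, a and a number: 44 of 21887 protein-coding genes. A peak, meaning a stretch of open chromatin listed in the authors' table, belonged to a gene where it overlapped the gene body or lay within 10 kb of either end. On this rule 353 of 87948 peaks fell to collagen genes, and 41 of the 44 genes had at least 1 peak. The chain type in the gene symbol split the family into 9 fibrillar genes (Col1, Col2, Col3, Col5 and Col11) with 50 peaks, 8 basement membrane genes (Col4, Col15 and Col18) with 148 peaks, and 27 other genes with 155 peaks. Types XXIV and XXVII, which also form fibrils, stayed among the other genes under this rule. Some peaks were tied to a pair of collagen genes: 11 in all.

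Collagens are secreted proteins whose alpha chains wind into helical trimers. Fibrillar collagens pack into the load-bearing fibres of the interstitial matrix, and in the heart types I and III, made mainly by fibroblasts, dominate. Type IV collagen forms the network of basement membranes, the sheets that surround capillaries and individual cardiomyocytes, while types XV and XVIII tie such sheets to the surrounding matrix. The enzyme Carm1 (Prmt4) methylates arginine residues of histones and of transcriptional coactivators.

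Cardiac tissue from mice at postnatal day 14 gave 4 ATAC-seq libraries, 2 wild type and 2 Carm1 mutant. ATAC-seq uses a transposase to insert sequencing adapters into accessible DNA, so the reads in a peak measure how open that stretch is, not how much RNA its gene makes. The labels name the mutant genotype only as "Carm1 mutant", and no allele, Cre driver, strain or sex is given with them. Nothing in the labels says whether a library came from 1 heart or several, so p-values measure only the spread between these libraries, which may be partly technical.

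The libraries held 15945420 to 19091969 counts each, and collagen peaks took 0.309% to 0.336% of them, with a median count per collagen peak of 88 to 110. Replicates differed by more than counting noise, at a chi-square over its degrees of freedom of 4.09 (wild type) and 5.76 (mutant), so every library counted once. Signal is given in CPM, counts scaled to a library total. For single peaks, and for sums over classes, marker lists or parts of a gene, that total was taken over all peaks. For the sum of a whole gene it was taken over all gene sums, where a peak counts once per gene it is tied to. CPM of gene sums and of peaks are therefore not on the same scale. Carm1 itself had 9 peaks, whose gene sum was 138 and 134 CPM in the wild-type and 140 and 145 CPM in the mutant libraries (log2 fold change 0.07, adjusted p = 0.734). By the edgeR test used below, 1 of the 9 was called higher and 1 lower, beside 3.05% and 2.45% of all peaks. Open chromatin of a gene does not check a mutation within it, so the genotype labels were not checked by these data. Every one of the 6 cardiomyocyte markers had a peak at a gene end, with a median of 77.6 CPM for the strongest. So did all 6 fibroblast, all 6 mural and 5 of 6 endothelial markers, with lower medians of 8.63, 9.15 and 14.1 CPM. Only 1 of 6 macrophage markers had such a peak. Liver and neuronal genes, which the heart should lack, had 3 and 10 peaks in all, and at most 2 genes of each list had a peak at a gene end. In bulk tissue, fewer cells of a type and less open chromatin per cell cannot be told apart.

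The promoters of the collagen genes on which the results turn are given first, as 250 bases before to 50 bases after the transcription start, 5′ to 3′ on the gene's strand. They come from RefSeq on assembly GRCm38.p6 (mm10), which supplied 38 promoters for 35 of the 44 genes. Col4a1 and Col4a2 are shown because they are transcribed away from each other from a shared start region under the strongest basement membrane start peak, Col4a4 because its start peak is shared with Col4a3, Col1a2 and Col3a1 as the major fibrillar chains, and Col6a2 (1 of its 2 promoter windows) because its summed signal passed the test. Capitals mark matches, on either strand, to 3 promoter motifs. These are a TATA box spelled TATAAA, the box named after its letters CCAAT, and a GC box spelled GGGCGG.
Col4a1 (chr8:11312777-11313076, minus strand): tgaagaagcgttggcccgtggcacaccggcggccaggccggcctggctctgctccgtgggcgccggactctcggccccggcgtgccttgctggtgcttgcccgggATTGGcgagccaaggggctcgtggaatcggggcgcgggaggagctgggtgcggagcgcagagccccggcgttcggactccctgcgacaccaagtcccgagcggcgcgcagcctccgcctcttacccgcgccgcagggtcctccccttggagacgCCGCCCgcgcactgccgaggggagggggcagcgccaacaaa
Col4a2 (chr8:11312555-11312854, plus strand): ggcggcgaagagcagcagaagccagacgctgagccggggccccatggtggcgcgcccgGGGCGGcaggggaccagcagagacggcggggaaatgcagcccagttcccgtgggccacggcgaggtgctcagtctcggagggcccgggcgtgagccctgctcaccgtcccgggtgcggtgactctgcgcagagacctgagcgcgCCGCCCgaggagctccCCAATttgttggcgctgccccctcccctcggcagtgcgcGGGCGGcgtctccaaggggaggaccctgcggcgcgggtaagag
Col4a4 (chr1:82586800-82587099, minus strand): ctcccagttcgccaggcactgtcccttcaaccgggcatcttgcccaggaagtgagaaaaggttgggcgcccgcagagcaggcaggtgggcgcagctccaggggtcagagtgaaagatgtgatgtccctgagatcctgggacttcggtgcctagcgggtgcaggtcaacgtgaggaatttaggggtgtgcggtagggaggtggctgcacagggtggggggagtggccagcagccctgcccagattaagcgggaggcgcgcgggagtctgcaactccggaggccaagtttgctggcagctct
Col1a2 (chr6:4505368-4505667, plus strand): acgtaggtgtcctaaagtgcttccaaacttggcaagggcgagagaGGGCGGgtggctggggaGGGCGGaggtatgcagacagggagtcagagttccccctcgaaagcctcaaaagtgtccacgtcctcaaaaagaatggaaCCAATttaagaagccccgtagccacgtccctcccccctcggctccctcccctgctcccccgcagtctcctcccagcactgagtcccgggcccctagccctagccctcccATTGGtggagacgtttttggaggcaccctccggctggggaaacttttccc
Col3a1 (chr1:45311288-45311587, plus strand): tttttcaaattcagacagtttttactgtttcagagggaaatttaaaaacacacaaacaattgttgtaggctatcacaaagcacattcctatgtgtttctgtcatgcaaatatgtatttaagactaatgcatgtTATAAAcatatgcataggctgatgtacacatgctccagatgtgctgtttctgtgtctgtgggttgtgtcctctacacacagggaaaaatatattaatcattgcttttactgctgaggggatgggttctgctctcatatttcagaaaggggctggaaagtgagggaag
Col6a2 (chr10:76623355-76623654, minus strand): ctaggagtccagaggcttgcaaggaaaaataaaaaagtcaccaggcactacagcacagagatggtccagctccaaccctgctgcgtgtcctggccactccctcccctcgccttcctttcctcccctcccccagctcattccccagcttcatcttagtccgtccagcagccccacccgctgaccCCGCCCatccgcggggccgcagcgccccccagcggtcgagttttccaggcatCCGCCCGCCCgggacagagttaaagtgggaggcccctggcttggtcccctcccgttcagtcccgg

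The starts of Col4a1 and Col4a2 lay 21 bp apart, so their promoter windows share 78 bases, read on opposite strands. Both windows were rich in G and C, at 74% for Col4a1 and 73.7% for Col4a2, and held no TATAAA. The Col3a1 window was the opposite, at 37.7% G and C with 1 TATAAA and neither of the other motifs. Over the family, TATAAA was found in 5 of 38 promoters (13.2%, against 12.6% of all 21263 mouse promoters of the same length), CCAAT in 13 (34.2% against 38.2%) and GGGCGG in 23 (60.5% against 46.2%). In Col6a2, 1 pair of GGGCGG matches overlapped. These matches describe letters in the window and are not evidence of binding.

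Most collagen peaks did not pass the test between genotypes. By edgeR's quasi-likelihood test over all 87948 peaks (Benjamini-Hochberg adjusted p under 0.05), 17 collagen peaks were higher in the mutant (4.82%, beside 3.05% of all peaks) and 5 were lower (1.42%, beside 2.45% of all peaks), while 331 were not called. The median log2 fold change of the collagen peaks, mutant over wild type, was 0.05, and the quartiles were -0.31 and 0.36. Over all peaks the median was -0.00069. Scaling by total counts in place of TMM left 16 higher and gave 10 lower, so the split of directions depends on the scaling. Of the 22 calls, 7 were made again without wild-type library 1, 3 without wild-type library 2, 18 without mutant library 1 and 15 without mutant library 2, and DESeq2 called 9. The sizes of the differences moved less than the calls. Over the 88 fits with 1 library left out (22 peaks by 4 libraries), the direction held in 87 and the fold stayed within 1.5 times its value in 84. The exceptions were in Col7a1, Col4a6 and Col25a1. The genotypes did not overlap in 21 of the 22 (95.5%, beside 99.2% of all 4839 called peaks). In those 21 peaks leaving out 1 library could hardly turn the direction. Each such fit also reuses the remaining libraries, so the counts of kept direction and fold are not an independent check.

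Basement membrane genes held 8 of the higher and 1 of the lower peaks, 5.41% and 0.676% of their 148. The median log2 fold change of that class was -0.05, and most of its peaks were those of Col4a1 and Col4a2. Fibrillar genes had 2 higher peaks (4%) and no lower one among 50. Their median log2 fold change was 0.16, and 34 of the 50 were positive, beside 43910 of all 87948 peaks. Without mutant library 2 the fibrillar median was -0.0764, and without mutant library 1 it was 0.351. The other genes had 7 higher and 4 lower among 155 (4.52% and 2.58%), with a median of 0.06. By place, 9 higher and 4 lower peaks lay among the 291 that overlap the body of a collagen gene. Another 8 higher and 1 lower lay among the 62 that lie only in the flanks. Over all peaks, 3.05% were higher and 2.45% lower. Of the 8 higher flank peaks, 5 lay in 1 stretch past the end of Col4a2, described below. Within 1 kb of the end of another protein-coding gene lay 3 of the higher peaks. None of the 28 peaks within 1 kb of a collagen gene start was called.

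**Figure D1:**
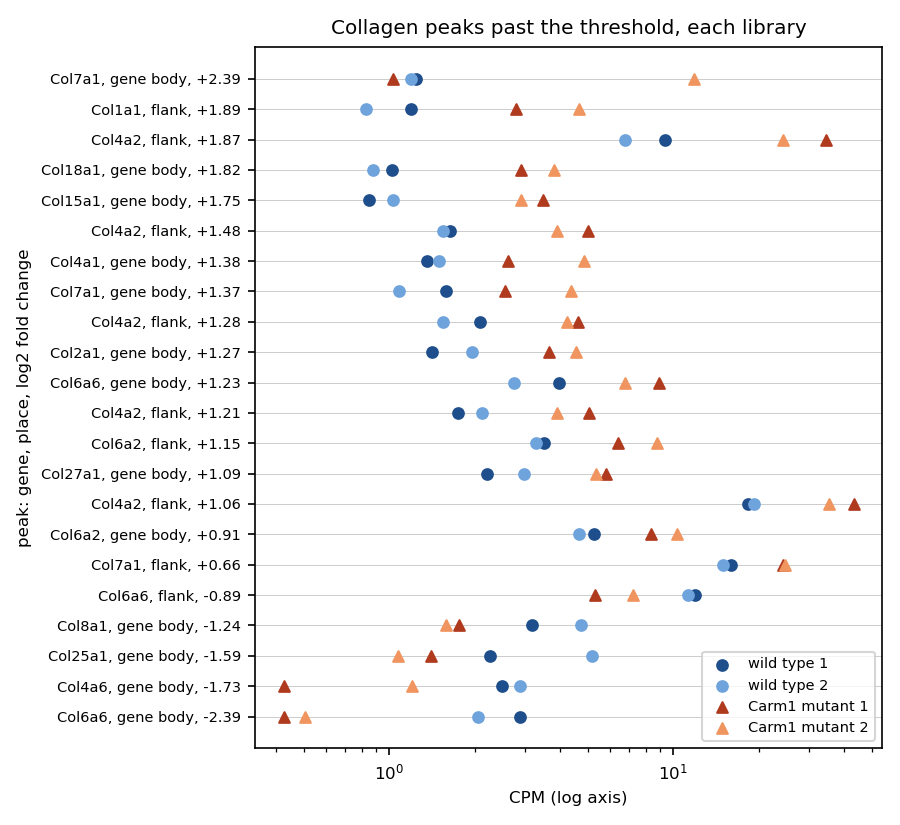
CPM on a log axis (horizontal) of each collagen peak past the threshold (vertical, with gene, place and log2 fold change), 1 point per library, circles wild type and triangles Carm1 mutant. The Col7a1 peak at the top, at +2.39, is high in mutant library 2 alone, at 11.8 CPM.

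Among the basement membrane collagens, Col4a1 and Col4a2 encode the alpha-1 and alpha-2 chains of the type IV collagen found in nearly all basement membranes. They carried 41 and 63 peaks, more than any other collagen gene, and together 97 distinct peaks, which is 27.5% of all collagen peaks and 65.5% of those of the basement membrane class. By number of peaks Col4a2 ranked 26 and Col4a1 ranked 96 among the 16369 protein-coding genes with a peak. The strongest peak at their shared start (chr8:11311509-11315826) had 88.4 and 67.2 CPM in the wild-type and 90.3 and 68.3 CPM in the mutant libraries. The 2 replicates of each genotype lay further apart than the genotypes did, with a log2 fold change of 0.03 (SE 0.15, adjusted p = 0.941).

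The called peaks of Col4a2 all lay past its downstream end, at chr8:11449287. The strongest change was at chr8:11457263-11458319, which had 9.34 and 6.76 CPM in the wild type and 34.4 and 24.3 CPM in the mutant. Both mutant libraries were well above both wild-type libraries, and the log2 fold change was 1.87 (SE 0.22, adjusted p = 0.0002). A second peak, chr8:11450183-11451658, began 896 bp past the gene end and went from 18.3 and 19.2 CPM to 43.1 and 35.2 CPM (log2 fold change 1.06, SE 0.17, adjusted p = 0.00153). These were the only 2 of the 22 called collagen peaks that were called again whichever library was left out.

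Another 3 peaks of the same stretch were weaker, reaching at most 5.05 CPM in any library, and passed with less margin. The peak at chr8:11459054-11459486 had 1.64 and 1.55 CPM in the wild type and 4.99 and 3.91 CPM in the mutant (log2 fold change 1.48, adjusted p = 0.0185). Those at chr8:11453636-11454262 and chr8:11458438-11458936 had log2 fold changes of 1.28 and 1.21 (adjusted p = 0.0343 and 0.0426). None of these 3 was called without wild-type library 1 (adjusted p = 0.0792, 0.0798 and 0.222, in the order given) or without wild-type library 2 (0.127, 0.261 and 0.151), and the last was not called without mutant library 1 (0.122). A sixth peak of the stretch, chr8:11452105-11453161, was not called (log2 fold change 0.66, adjusted p = 0.118).

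This stretch is also that of another gene. Rab20, which encodes a small GTPase of vesicle traffic and runs on the minus strand from chr8:11453390 to chr8:11478640, has its nearer end 4103 bp past the end of Col4a2. Of the 5 called peaks, 4 lie within Rab20 and 1 of these at its end, and only chr8:11450183-11451658 lies within 1 kb of the end of Col4a2. A further 3 Rab20 peaks, beyond 10 kb of Col4a2 and so outside the family, were called higher too, at log2 fold changes of 1.35, 0.80 and 0.62. Summed over the 6 downstream peaks, on the scale of single peaks, the signal was 40.5 and 37.0 CPM in the wild type and 102 and 82.7 CPM in the mutant. The remaining 57 Col4a2 peaks held 758 and 702 CPM in the wild type and 698 and 695 CPM in the mutant, with none called and a median log2 fold change of -0.08. Which gene these peaks act on was not tested.

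**Figure D2:**
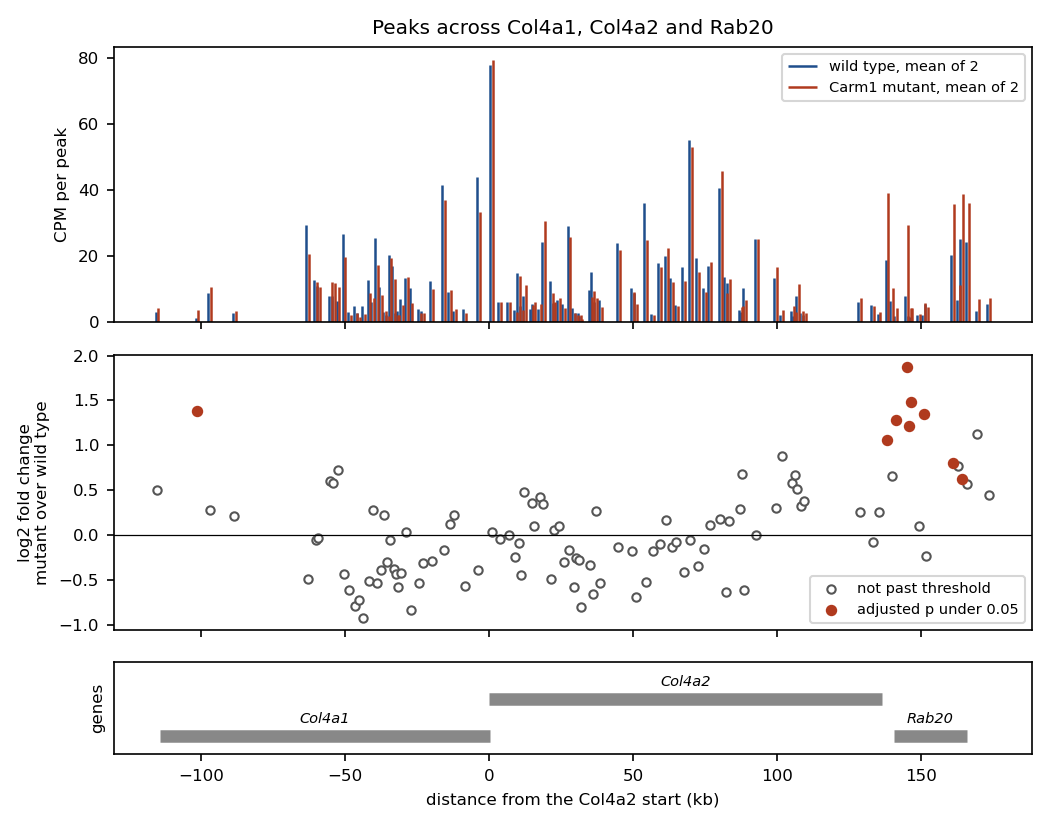
Peaks across the Col4a1, Col4a2 and Rab20 genes by distance from the Col4a2 start in kb (horizontal), with mean CPM per genotype (top), log2 fold change per peak (middle, filled where the adjusted p was under 0.05) and gene extents (bottom). The called Col4a2 peaks sit past the end of that gene, and 1 called peak lies near the far end of Col4a1.

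Within Col4a1, 1 weak peak near the downstream end, chr8:11211108-11211461, was called higher, with 1.36 and 1.5 CPM in the wild type and 2.62 and 4.86 CPM in the mutant (log2 fold change 1.38, adjusted p = 0.0431). It was not called without wild-type library 1 (0.175), wild-type library 2 (0.167) or mutant library 2 (0.235). Summed over its 41 peaks, Col4a1 had 430 and 394 CPM in the wild type and 353 and 374 CPM in the mutant, a log2 fold change of -0.18 that did not pass (adjusted p = 0.274).

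Col15a1 and Col18a1 encode the core proteins of types XV and XVIII, the latter the source of the fragment endostatin. Each had 1 called peak in its gene body, and both were faint. The Col18a1 peak (chr10:77110009-77110349) had 1.02 and 0.877 CPM in the wild type and 2.92 and 3.79 CPM in the mutant, with a log2 fold change of 1.82 (adjusted p = 0.0123, but 0.107 without wild-type library 2). The Col15a1 peak (chr4:47231388-47231612) had 0.849 and 1.03 CPM against 3.47 and 2.90 CPM, with a log2 fold change of 1.75 (adjusted p = 0.015, but 0.101 without wild-type library 1 and 0.0795 without wild-type library 2). The summed signal of Col15a1 pointed the other way from its called peak, at 102 and 115 CPM in the wild type and 87.7 and 90.1 CPM in the mutant (log2 fold change -0.29, adjusted p = 0.111).

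The lower peak of the class was in Col4a6, an X-linked gene for a type IV chain of restricted distribution. At chrX:141385441-141385758 it had 2.49 and 2.89 CPM in the wild type and 0.426 and 1.2 CPM in the mutant (log2 fold change -1.73, adjusted p = 0.0325). The call was lost without wild-type library 1 (0.0872), wild-type library 2 (0.204) or mutant library 1 (0.136), and without mutant library 2 the log2 fold change was -2.64. Counts on the whole X chromosome lay between 12710 and 14120 CPM, higher in both mutant libraries than in both wild-type libraries. The 25 peaks of the Y chromosome held 2321 and 1434 counts in the wild-type and 3834 and 2260 in the mutant libraries, so every library held Y reads. The sex of the animals was not tested. Col4a3 and Col4a4, whose chains join with that of Col4a5 in the glomerular basement membrane, shared a start peak at chr1:82586525-82587599 with 10 and 8.77 CPM in the wild type and 14.5 and 12.2 CPM in the mutant. Its log2 fold change of 0.51 did not pass (adjusted p = 0.178).

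Among the fibrillar collagens, no start peak passed the test. The Col1a1 peak at the gene end (chr11:94935610-94938425) had 34.4 and 33.9 CPM in the wild type and 34.2 and 42.6 CPM in the mutant (log2 fold change 0.17, SE 0.16). Col1a2, which encodes the partner chain of type I, had 8.26 and 11.8 CPM against 8.52 and 11.4 CPM at its start (chr6:4505170-4506520; log2 fold change -0.0094). Col3a1, the type III chain, had 4.07 and 5.68 CPM against 5.41 and 7.26 CPM (chr1:45311337-45311794; log2 fold change 0.37, SE 0.28, adjusted p = 0.478). In these genes the ranges of the genotypes overlapped.

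Type V collagen regulates the assembly and diameter of type I fibrils. The start peak of Col5a1 (chr2:27885462-27889754) had 45.9 and 43.2 CPM in the wild type and 44.8 and 56.6 CPM in the mutant, a log2 fold change of 0.18 (adjusted p = 0.511). That of Col5a2 (chr1:45502782-45503339), taken at either gene end, had 7.81 and 8.57 CPM against 7.48 and 10.7 CPM (log2 fold change 0.15, adjusted p = 0.786). In Col1a1, Col5a1 and Col5a2 alike, mutant library 2 was the highest and mutant library 1 lay within or below the wild-type values.

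The 2 fibrillar peaks that passed were faint. The one 2125 bp outside Col1a1, at chr11:94955167-94955531, had 1.19 and 0.826 CPM in the wild type and 2.80 and 4.67 CPM in the mutant (log2 fold change 1.89, SE 0.41, adjusted p = 0.0118, and 0.113 without wild-type library 2). The other lay in Col2a1, the chain of cartilage fibrils, at chr15:98001244-98001581, with 1.41 and 1.96 CPM against 3.65 and 4.54 CPM (log2 fold change 1.27, adjusted p = 0.0418). That call was lost without wild-type library 1 (0.249), wild-type library 2 (0.117) or mutant library 2 (0.0826). Col11a1, the main type XI chain, was the only fibrillar gene with no peak.

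The summed signal of the 50 fibrillar peaks was 517 and 535.3 CPM in the wild type and 512.2 and 622.7 CPM in the mutant, so mutant library 2 stood apart and mutant library 1 was the lowest. Fibroblast markers as a list showed the same library on top: their 31 peaks summed to 220.8 and 230.3 CPM in the wild type and 230.2 and 261.4 CPM in the mutant, with none called in either direction. Members of the list differed. As gene sums, Ddr2 had 67.3 and 66.4 CPM in the wild type and 55.2 and 83.9 CPM in the mutant. Dcn was highest in wild-type library 2, Postn in mutant library 1, and Lum was nearly level. All of these are also among the collagen partner genes below. Sums of Pdgfra and Tcf21 are not given here. The 46 peaks of the mural markers (pericytes and smooth muscle) also had mutant library 2 on top, at 295 and 305 CPM against 324.5 and 375.6 CPM, with 2 called higher (4.35%, beside 3.05% of all peaks). Their part in the fibrillar values was not tested. Basement membrane peaks varied far less, at 1495 and 1471 CPM in the wild type and 1467 and 1504 CPM in the mutant. Of the 70 peaks of the endothelial markers, 4 were called lower (5.71%, beside 2.45% of all peaks) and none higher. They summed to 809.3 and 658.9 CPM in the wild type and 656.1 and 624.4 CPM in the mutant, with wild-type library 1 the highest. Of the 214 peaks of the cardiomyocyte markers, 8 were called higher and 1 lower (3.74% and 0.467%, beside 3.05% and 2.45% of all peaks). They summed to 2879 and 2657 CPM in the wild type and 3219 and 2936 CPM in the mutant, so both mutant libraries lay above both wild-type libraries.

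**Figure D3:**
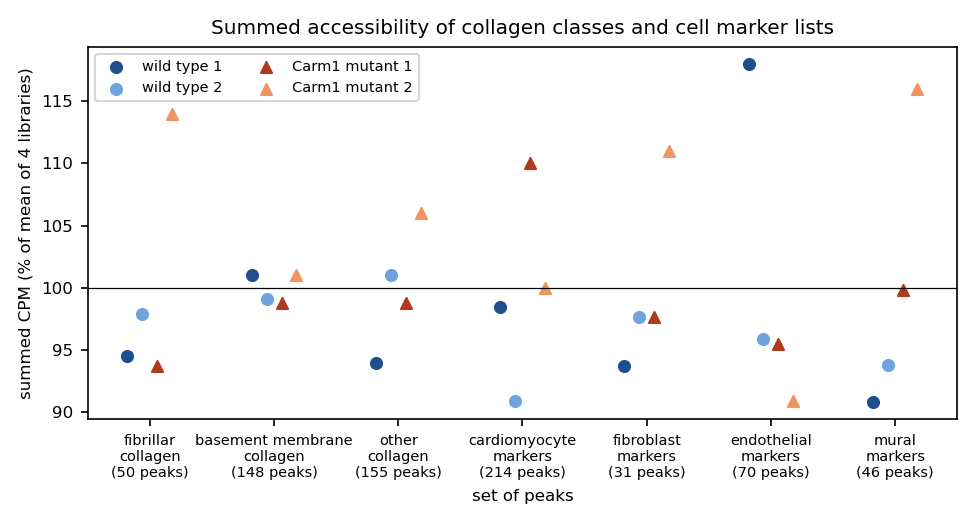
Summed CPM of each collagen class and of 4 lists of cell markers (horizontal), as a percentage of the mean of the 4 libraries (vertical), 1 point per library. Mutant library 2 reaches 114% for fibrillar collagen, 111% for fibroblast markers and 116% for mural markers, while basement membrane collagen stays between 98.8% and 101%.

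Of the other types, type VI collagen forms beaded microfilaments around cells, including muscle cells, from chains encoded by Col6a1 to Col6a6. Col6a2 was the single collagen gene of 41 whose summed counts passed (2.44%, beside 3.11% of all 16369 genes tested the same way). As a gene sum over its 5 peaks it had 24.6 and 25.8 CPM in the wild type and 32.8 and 41.3 CPM in the mutant, on the scale of gene sums. The log2 fold change was 0.56 (SE 0.13, adjusted p = 0.0249). The adjusted p was 0.218 without wild-type library 1, 0.133 without wild-type library 2 and 0.0669 without mutant library 2. It was 0.0709 when peaks at the ends of other genes were left out, an alternative chosen after seeing the data, and 0.259 with peaks in the gene body alone.

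Of the 2 called Col6a2 peaks, 1 lies at another gene. The peak at chr10:76590190-76590699 lies at an end of Ftcd, a neighbouring gene for a folate enzyme, and had 3.51 and 3.30 CPM in the wild type and 6.39 and 8.77 CPM in the mutant (log2 fold change 1.15, adjusted p = 0.0223). The peak in the gene body, chr10:76602420-76603182, had 5.26 and 4.64 CPM against 8.33 and 10.3 CPM (log2 fold change 0.91, adjusted p = 0.0409). Neither was called without wild-type library 1 (0.0897 and 0.13), wild-type library 2 (0.145 and 0.264) or mutant library 2 (0.0757 and 0.104). At the start of Col6a2 (chr10:76622665-76623741), 14.7 and 15.2 CPM in the wild type stood beside 14.7 and 18.8 CPM in the mutant (log2 fold change 0.17, adjusted p = 0.676).

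Col6a1 and Col6a3 encode the partner chains of the classical type VI trimer. The Col6a1 start peak (chr10:76725760-76726457) had 4.75 and 4.70 CPM in the wild type and 5.11 and 6.37 CPM in the mutant (log2 fold change 0.28, adjusted p = 0.605). The Col6a3 start peak (chr1:90842847-90844021) leaned the other way, at 8.66 and 7.53 CPM against 5.54 and 6.81 CPM (log2 fold change -0.39, SE 0.25, adjusted p = 0.393), though its summed signal did not, at 0.04. None of the 3 chains had a called peak at its start.

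Col6a6, a later-discovered type VI chain, held called peaks in both directions. At chr9:105821559-105821836 in the gene body the signal was 2.89 and 2.06 CPM in the wild type and 0.426 and 0.505 CPM in the mutant, where it rested on 7 and 8 reads (log2 fold change -2.39, SE 0.48, adjusted p = 0.00681, and 0.0906 without wild-type library 1). At chr9:105835625-105836251 upstream it was 11.9 and 11.3 CPM against 5.29 and 7.19 CPM (log2 fold change -0.89, adjusted p = 0.0359). That call was lost without wild-type library 1 (0.17), wild-type library 2 (0.155) or mutant library 1 (0.112). Another peak, chr9:105770697-105771148, was higher, at 3.96 and 2.74 CPM against 8.88 and 6.75 CPM (log2 fold change 1.23, adjusted p = 0.0184, and 0.198 without wild-type library 2). Summed over its 13 peaks, Col6a6 had 64.3 and 69.1 CPM in the wild type and 52.4 and 56.6 CPM in the mutant (log2 fold change -0.29, adjusted p = 0.146).

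Col7a1, the chain of the anchoring fibrils under epithelia, had 3 called peaks, each with a limit. The peak at chr9:108977972-108978370 had 1.24 and 1.19 CPM in the wild type but 1.03 and 11.8 CPM in the mutant, so the genotypes overlapped. Its log2 fold change was 2.39 (SE 0.63, adjusted p = 0.0302). It was 3.27 without mutant library 1 and turned to -0.23 without mutant library 2 (adjusted p = 0.845). Without wild-type library 2 the adjusted p was 0.059. The strongest of the 3, chr9:108949152-108950669, lies at an end of Uqcrc1, a gene for a subunit of respiratory complex III, and had 16 and 15 CPM against 24.3 and 24.7 CPM (log2 fold change 0.66, adjusted p = 0.0326). It was not called without wild-type library 1 (0.166) or wild-type library 2 (0.276). The third, chr9:108970577-108970973, had 1.58 and 1.08 CPM against 2.55 and 4.35 CPM (log2 fold change 1.37, adjusted p = 0.049), and the call was lost without wild-type library 1 (0.0897), wild-type library 2 (0.313) or mutant library 2 (0.196).

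The remaining called peaks were single ones in gene bodies. In Col27a1, a fibril-forming chain of cartilage, chr4:63268750-63269147 had 2.21 and 2.99 CPM in the wild type and 5.78 and 5.36 CPM in the mutant (log2 fold change 1.09, adjusted p = 0.0425). It was not called without wild-type library 1 (0.273), wild-type library 2 (0.112) or mutant library 1 (0.0691). Col25a1, a transmembrane collagen known from neurons, was lower at chr3:130329907-130330407, with 2.26 and 5.16 CPM against 1.40 and 1.07 CPM (log2 fold change -1.59, adjusted p = 0.0343). Without wild-type library 2 the log2 fold change was -0.86 (adjusted p = 0.542). Col8a1, a short-chain collagen of vessel walls, was lower at chr16:57725024-57725536, with 3.17 and 4.75 CPM against 1.76 and 1.58 CPM (log2 fold change -1.24). Its adjusted p rounds to 0.05, just under the threshold, and was 0.0634 without wild-type library 1, 0.428 without wild-type library 2 and 0.0698 without mutant library 2.

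At the starts of Col8a1, Col14a1, Col15a1 and Col18a1 the genotypes overlapped. Col8a1 had 5.66 and 6.09 CPM in the wild type and 4.44 and 8.33 CPM in the mutant at chr16:57755154-57755714. Col14a1, a collagen that decorates fibrils, had 6.79 and 7.90 CPM against 8.58 and 5.05 CPM at chr15:55306330-55307290. Col15a1 had 12.8 and 10.6 CPM against 12.1 and 8.96 CPM at chr4:47207827-47209074. Col18a1 had 9.73 and 4.90 CPM against 8.33 and 11.4 CPM at chr10:77165459-77166710, the pair of wild-type replicates lying further apart than the genotype means. The Col25a1 start peak (chr3:130180079-130181002) did separate, at 15.2 and 12.6 CPM in the wild type and 10.9 and 8.08 CPM in the mutant. Its log2 fold change of -0.55 did not pass (adjusted p = 0.157), except without mutant library 1 (0.0422). The start peaks of Col11a2, Col13a1, Col16a1, Col4a5, Col5a3, Col6a1, Col6a3, Col6a5 and Col9a2, and that shared by Col4a3 and Col4a4, also separated. Some of these were higher and some lower in the mutant, and none was called. How many of all peaks separate in this way was not counted. Col12a1, another fibril-associated chain, had no peak within 1 kb of either gene end, although 5 peaks lay at the gene.

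Over all 26 genes with a start peak, 24 distinct peaks in all, the log2 fold changes ran from -0.63 at Col6a5 to 0.70 at Col4a5, with a median of 0.15 and none called. To compare levels between genes, CPM was divided by the peak width. On that scale the median start peak had 10.3 CPM per kb, with 11.1 for fibrillar, 8.92 for basement membrane and 9.33 for other genes. Col23a1, a transmembrane collagen, was the highest, at 21.5 CPM per kb, followed by the shared Col4a1 and Col4a2 start at 18.2. The spreads of these 2 over libraries overlapped. Within each library Col23a1 was the higher, though by little in wild-type library 1 and mutant library 1. Col1a2 was among the lowest, at 7.40, and Col6a3 was the lowest, at 6.08. Starts in 18 genes had no peak.

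**Figure D4:**
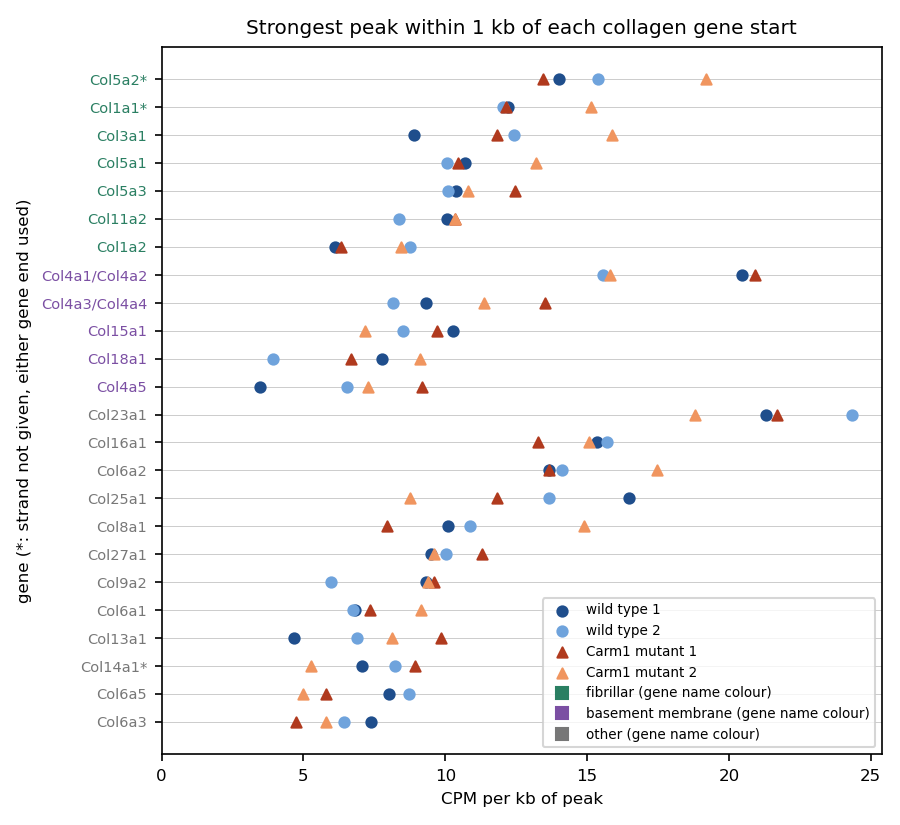
CPM per kb of peak (horizontal) for the strongest peak within 1 kb of each collagen gene start (vertical), 1 point per library, circles wild type and triangles Carm1 mutant, with the gene name coloured by class. Col23a1 and the shared Col4a1 and Col4a2 start are the highest. Circles and triangles intermingle in many genes and separate in others, such as Col13a1, Col25a1 and Col6a3.

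Summed over each gene's peaks, the family showed small differences in both directions. Both mutant libraries lay above both wild-type libraries in 14 of 41 genes (34.1%, beside 23.8% of all genes tested) and below them in 9 (22.0%, beside 23.4%), and the genotypes overlapped in 18. The median log2 fold change of the gene sums was 0.10, beside 0.0014 over all genes. The unadjusted p was under 0.05 in 13 genes, 6 higher (14.6%, beside 9.3% of all genes tested) and 7 lower (17.1%, beside 7.73%). Closest to the threshold after Col6a2 were Col13a1, a transmembrane collagen (log2 fold change 0.35, adjusted p = 0.0805), Col6a5 (-0.94, adjusted p = 0.0905) and Col14a1 (-0.39, adjusted p = 0.0992). Without mutant library 1 the called sums were all higher. Without mutant library 2 they were those of other genes, all lower, so the direction of the called sums depended on which mutant library was kept. The directions over all genes in these fits were not counted, so this is not shown to be particular to collagen genes.

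**Figure D5:**
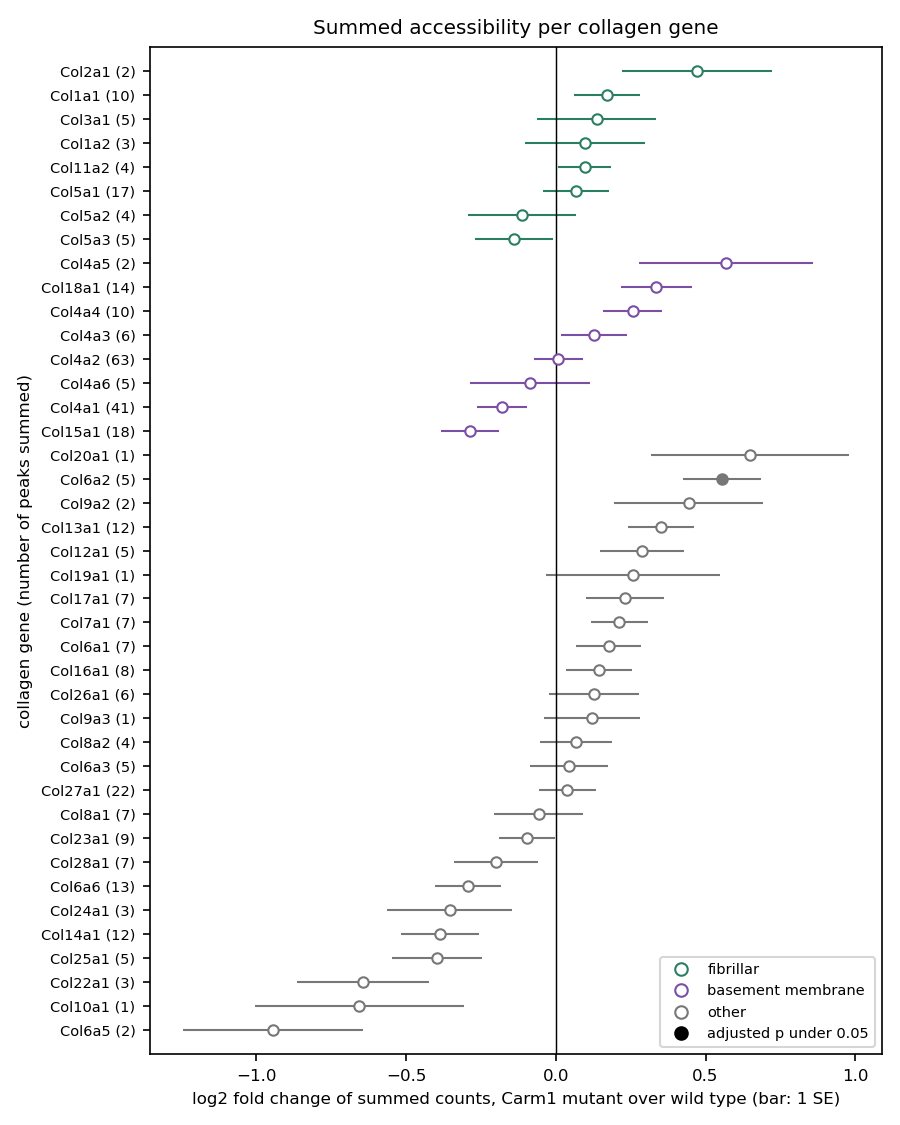
Log2 fold change of summed counts, Carm1 mutant over wild type (horizontal, bar 1 SE), for the 41 collagen genes with a peak (vertical, number of peaks in parentheses), by class. Col6a2 alone is filled, with an adjusted p of 0.0249.

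Col27a1, with 22 peaks, had the most after Col4a2 and Col4a1, and its sum was 120 and 135 CPM in the wild type and 124 and 138 CPM in the mutant (log2 fold change 0.04). Collagen genes had a median of 5 peaks each, beside 3 over all genes with a peak, but a lower density, at 5.36 beside 7.45 peaks per 100 kb of gene and flanks. Col9a1 and Col6a4 had no peak, as was the case for Col11a1. Col9a1 encodes a cartilage chain.

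The genes that process, cross-link, degrade and bind collagen were taken as a list of 41 genes with 262 peaks, none shared with the family. Of these peaks 8 were higher and 8 lower (3.05% each, beside 3.05% higher and 2.45% lower of all peaks). The median log2 fold change was 0.10. Among the enzymes that modify new chains, the prolyl hydroxylase gene P4ha1 had 1 lower peak (log2 fold change -1.30, adjusted p = 0.0104) and P4ha2 had 1 higher (1.60, adjusted p = 0.0241). Plod2, a lysyl hydroxylase gene, had 2 higher peaks (1.14 and 1.38) and 1 lower (-1.10), and its relative Plod1 had 1 lower (-0.60, adjusted p = 0.0352). Serpinh1, the collagen chaperone, had 1 higher peak, at 47.8 and 40.6 CPM in the wild type and 70.5 and 56.8 CPM in the mutant (0.53, adjusted p = 0.0429). Of these 7 peaks none was called without wild-type library 2 except that of P4ha2 (0.0236), which was lost without wild-type library 1 (0.213).

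For the summed counts, 3 of the 41 genes passed (7.32%, beside 3.11% of all genes tested). Ctsk, the cysteine protease cathepsin K, which degrades fibrillar collagen, had 8.18 and 8.28 CPM in the wild type and 2.53 and 3.76 CPM in the mutant (log2 fold change -1.39, SE 0.27, adjusted p = 0.00678). Itga2, the alpha-2 subunit of a collagen-binding integrin, had 57.2 and 50.3 CPM against 35 and 37.7 CPM (-0.56, SE 0.12, adjusted p = 0.0117). Tll1, a procollagen C-proteinase of the tolloid family, had 2.43 and 2.72 CPM against 5.69 and 6.5 CPM (1.24, SE 0.28, adjusted p = 0.0187). Ctsk passed again whichever library was left out. Itga2 did not pass without wild-type library 1 (0.231), and Tll1 did not without wild-type library 1 (0.16) or wild-type library 2 (0.11).

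Peaks of other binding and turnover genes passed as well. Called higher were 1 peak each of Ddr1, a collagen receptor tyrosine kinase (0.82, adjusted p = 0.0226), Itga1, another integrin subunit (1.10, adjusted p = 0.0332), and Bgn, the proteoglycan biglycan (1.08, adjusted p = 0.0349). Called lower were 1 peak of the gelatinase gene Mmp2 (-0.70, adjusted p = 0.0343) and 1 tied to Itga10 that lies at an end of Ankrd35 (-1.39, adjusted p = 0.00185), which had 18.3 and 15.9 CPM in the wild type and 5.72 and 7.32 CPM in the mutant. The Itga10 peak was called again whichever library was left out. The calls of Ddr1 (0.162), Itga1 (0.281), Bgn (0.184) and Mmp2 (0.113) were lost without wild-type library 1, and those of Ddr1 (0.134), Bgn (0.156) and Mmp2 (0.317) without wild-type library 2. Ddr1 was also lost without mutant library 2 (0.0604) and Mmp2 without mutant library 1 (0.0597).

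The lysyl oxidase genes Lox and Loxl1 to Loxl4, which cross-link collagen, had no gene sum past the threshold with all libraries. Their log2 fold changes ran from -0.07 at Loxl4 to 0.31 at Lox. The Lox sum rested on 1 peak, with 7.25 and 9.6 CPM in the wild type and 7.1 and 13.9 CPM in the mutant. Only mutant library 2 lay above the wild type there.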

How the data were processed

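The deposited table holds unnormalized counts of reads in a common set of peaks, 1 column per library, as its values and header show. Libraries were made by a commercial provider, per the labels. FastQC, Bowtie2 (no versions) and build mm10 appear in the submitters' processing notes. How peaks were called, reads filtered, duplicates treated or cut sites shifted is not given in the sources used here. Any of these could change the counts. Reads outside peaks were not used.

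Peaks were tied to genes with the RefSeq table of GRCm38.p6 (the mm10 assembly). RefSeq promoters gave strand and start. For the 9 collagen genes without one, either gene end stood in for the start. Exons were not placed. Counts per peak, and counts summed per gene, were compared with edgeR 4.0.16 (R 4.3.3; quasi-likelihood test, TMM, filterByExpr, which removed 0 peaks, Benjamini-Hochberg adjustment over all peaks or genes, threshold 0.05, 2 residual degrees of freedom, biological coefficient of variation 0.166). CPM used TMM-adjusted library sizes, taken over all peaks for peaks and sets of peaks, and over all gene sums for gene sums. SE was derived from the test statistic. Summaries used Python 3.11.15 and pandas 2.3.3. On simulated counts the peak test recovered 8.96%, 41.8% and 89.4% of peaks changed by folds of 1.5, 2 and 3 (5 false among 98 calls), and the test of gene sums 71.6%, 89.6% and 100% of genes (10 false among 184 calls). Changes were simulated only above a minimum mean count, which faint called peaks such as those of Col18a1 and Col15a1 did not reach. The simulated noise followed the average trend with signal level. Only 67, 67 and 66 peaks or genes were changed at these folds. The simulated calls were therefore fewer than the 4839 peaks and 509 gene sums called in the data. With fewer calls, an adjusted p under 0.05 needs a smaller unadjusted p, so the rates belong to a stricter cutoff than that of the data. They need not hold for the real tests, nor for faint peaks or peaks noisier than that trend.

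Named were all called collagen peaks, the strongest start peak of 15 collagen genes chosen for their known roles, genes with called sums, the 3 genes with most peaks and genes without peaks. Genes near the threshold, called peaks and sums of partner genes, and Rab20 were named after their values were seen. The members and lists were chosen with earlier results of these data known. Alternatives were RLE and total-count scaling, no filter, a mean CPM of at least 2, DESeq2 1.42.0, each library left out, a replicate block, other windows, peaks at other genes' ends left out, and the X chromosome left out.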

Additional observations from a re-analysis of the deposited data

How the results depend on the processing

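The effect of depth was not tested. Where leaving out a library left 1 of a genotype, that library was assumed to vary like those of the other genotype. Leaving out each library in turn gave 1006 to 8439 called peaks in all (4839 with all libraries). For the family it gave 2 to 24 higher, 1 to 19 lower and a median log2 fold change of -0.065 to 0.12. The fibrillar range was 0 to 2 higher, 0 to 1 lower and a median of -0.0764 to 0.351. The basement membrane range was 2 to 12 higher, 0 to 7 lower and a median of -0.0734 to 0.0153. The other genes gave 0 to 10 higher, 1 to 11 lower and a median of -0.043 to 0.138. The partner list gave 2 to 20 higher and 3 to 11 lower, and the gene sums 0 to 6 called. The Col7a1 peak at chr9:108977972-108978370 had a log2 fold change of 3.27 without mutant library 1 and reversed to -0.231 without mutant library 2, which held nearly all its mutant reads. DESeq2 called 2373 peaks in all. In the family it called 8 higher and 1 lower, with 1 fibrillar higher, 4 basement membrane higher and 0 lower, 3 other higher and 1 lower, and 4 partner peaks in each direction. Same-numbered libraries correlated at 0.108 in their deviations over 2 pairs, and the labels give the numbers no meaning, so they were not taken as pairs. With the replicate block 9724 peaks were called in all, 28 collagen peaks higher and 21 lower, with 1 fibrillar lower, 9 basement membrane lower, 15 other higher, 11 other lower, 17 partner peaks higher and 15 lower, and 7 gene sums. Total-count scaling gave 10 lower in the family and 5 lower in the basement membrane class. A mean CPM of at least 2 gave 2 lower in the family, 0 in the basement membrane class and 2 among the other genes. Gene bodies alone held 9 higher in the family, 1 fibrillar and 3 basement membrane, and the other genes had a median of -0.0030. A window of 50 kb held 9 lower in the family, 13 basement membrane higher with a median of 0.0036, and 8 other lower with a median of 0.0102. Without the X chromosome the basement membrane class had 0 lower. Leaving out peaks at other genes' ends gave 0 gene sums called. Gene bodies alone and the 50 kb window each gave 1 called gene sum, of Col7a1 and Col6a5 respectively and not of Col6a2. The cause of these shifts was not tested where the alternative's own construction does not show it. The start peaks of the 14 genes named by rule stayed uncalled in 140 of 140 alternatives, counting the peak shared by Col4a1 and Col4a2 under both. Among the other start peaks that of Col25a1 was called without mutant library 1. The called peaks and the Col6a2 sum kept direction and call in 164 of 231 and lost the call in 66.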
